A study of Homo sapiens with 8 samples.

Results

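P-TEFb, the kinase that releases paused RNA polymerase II, and the proteins of the 7SK complex that holds it inactive were followed in HepG2 cells exposed to 2 BET inhibitors. The 7 member genes were named by function: CDK9, CCNT1 and CCNT2 for the kinase, HEXIM1 and HEXIM2 for its inhibitors, and MEPCE and LARP7 for the proteins that stabilise 7SK RNA. Of these, 6 had a probe set of their own among the 17845 genes tested, and LARP7 was present only on a probe set shared with ZGRF1. HepG2 comes from a human liver tumour and keeps many features of hepatocytes, and its expression was read on Affymetrix Human Gene 1.0 ST arrays. The groups were JQ1 at 500 nM (2 arrays), RVX-208 at 5000 nM (3 arrays) and DMSO alone (3 arrays), each kept for 4 h with DMSO at 0.1%. The study compared what each inhibitor did to transcription in these cells. A further JQ1 sample that the design text counts is not analysed here. Separate cultures are not stated for the replicates, so the spread behind each p-value may be technical.

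BET proteins read acetylated chromatin and bring P-TEFb to genes, and JQ1 and RVX-208 occupy their bromodomains. RVX-208 prefers the second bromodomain, whereas JQ1 binds both. P-TEFb consists of the kinase CDK9 with cyclin T1 or T2, and it phosphorylates the tail of RNA polymerase II and the pausing factors DSIF and NELF. In the 7SK complex, the noncoding RNA 7SK is capped by MEPCE, bound near its end by LARP7, and carries HEXIM1 or HEXIM2, which block CDK9 until P-TEFb is released.

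The promoters of both paralog pairs are shown because the comparison within each pair is the main one made here. Each window runs from 250 bases before to 50 bases after a gene start that RefSeq annotates, in build GRCh38.p14, and reads in the direction of the gene. Capitals mark the TATA box (TATAAA), the E-box (CACGTG), the CCAAT box and the cyclic AMP element (TGACGTCA) on either strand, so that ATTGG stands for a CCAAT box on the opposite strand. HEXIM1 and HEXIM2 are neighbours on chromosome 17, with 0 RefSeq genes wholly between them.
HEXIM1, chr17:45148225-45148524, plus strand: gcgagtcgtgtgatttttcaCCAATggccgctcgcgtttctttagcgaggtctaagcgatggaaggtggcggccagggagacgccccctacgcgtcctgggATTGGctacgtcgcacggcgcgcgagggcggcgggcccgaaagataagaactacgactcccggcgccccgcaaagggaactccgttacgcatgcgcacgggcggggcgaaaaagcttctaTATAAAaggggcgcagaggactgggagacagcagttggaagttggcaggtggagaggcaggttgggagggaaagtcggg
HEXIM2, second of its 2 windows, chr17:45161625-45161924, plus strand: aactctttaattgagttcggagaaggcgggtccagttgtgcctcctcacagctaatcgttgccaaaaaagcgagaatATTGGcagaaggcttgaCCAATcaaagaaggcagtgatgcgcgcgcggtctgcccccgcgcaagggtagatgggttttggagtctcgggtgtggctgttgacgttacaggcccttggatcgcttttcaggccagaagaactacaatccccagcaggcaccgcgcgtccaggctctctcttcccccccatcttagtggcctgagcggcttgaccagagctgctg
CCNT1, first of its 2 windows, chr12:48716658-48716957, minus strand: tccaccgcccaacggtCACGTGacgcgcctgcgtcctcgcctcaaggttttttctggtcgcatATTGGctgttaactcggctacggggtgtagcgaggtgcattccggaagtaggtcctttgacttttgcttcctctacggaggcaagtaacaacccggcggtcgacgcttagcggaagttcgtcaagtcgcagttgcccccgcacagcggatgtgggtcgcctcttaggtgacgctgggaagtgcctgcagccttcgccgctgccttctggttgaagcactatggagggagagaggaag
CCNT2, chr2:134918572-134918871, plus strand: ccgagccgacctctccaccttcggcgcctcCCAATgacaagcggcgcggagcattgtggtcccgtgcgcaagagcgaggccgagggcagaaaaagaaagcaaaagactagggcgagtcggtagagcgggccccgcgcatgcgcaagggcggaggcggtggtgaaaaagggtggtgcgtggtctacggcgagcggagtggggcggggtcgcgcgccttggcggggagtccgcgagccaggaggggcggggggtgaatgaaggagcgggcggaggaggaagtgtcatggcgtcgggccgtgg

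Within each pair the windows shown differed in some of the letters found and shared others. The letters describe the sequence and not a bound site. HEXIM1 held TATAAA 29 bases before its start (offset -29), the only one of the 12 windows of the 7 members to hold it, whereas 11.5% of all 35116 RefSeq windows did. It also held CCAAT at -230 and, on the other strand, at -149. The HEXIM2 window held CCAAT at -156 and, on the other strand, at -173, and CCAAT occurred in 34.6% of all windows. The GC box letters GGGCGG, which are not capitalised, lay at -124 and -51 in HEXIM1 and were not found on either strand in HEXIM2, against 45.0% of all windows that held them. CCNT1 held the E-box letters CACGTG at -234, as did 7.3% of all windows, and CCNT2 did not. CCNT1 held CCAAT at -187 and GGGCGG at -246, both on the other strand. CCNT2 held CCAAT at -220 and GGGCGG 4 times, at -105, -52, -9 and 14. The cyclic AMP element TGACGTCA, in 1.8% of all windows, was in none of the 4 sequences shown. GC content of the windows shown was 62.0% for HEXIM1, 56.3% for HEXIM2, 59.0% for CCNT1 and 69.0% for CCNT2. The median over all windows was 58.7%. The window not shown had 35.3% for HEXIM2 and 31.3% for CCNT1, and held none of the letters searched for. The HEXIM2 window shown shared 164 bases with the window of the antisense gene HEXIM2-AS1, and that of CCNT2 shared 285 bases with CCNT2-AS1. Such overlap with a window on the opposite strand was found for 16.3% of all windows.

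The cells carried the transcripts of their label. The 7 measured hepatocyte markers (HNF4A is not analysed here) had group means of 10.50 (SERPINA1 in DMSO) to 13.62 (APOB in JQ1) on the log2 scale, and 0 of them passed the limma test in any comparison (1 of 7 had an unadjusted p under 0.05 for JQ1 and 0 for RVX-208, each against DMSO). The 10 measured blood, endothelial and fibroblast markers had group means of 3.24 (LUM in RVX-208) to 8.22 (PECAM1 in RVX-208). The summed level of these 10 markers was 9.79 to 9.80 in JQ1 arrays and 9.77 to 9.86 in RVX-208 arrays, against 9.92 to 9.98 in DMSO arrays. Of the 10, PDGFRB alone passed the test, with log2 fold changes of -0.30 for JQ1 (adjusted p = 0.00574) and -0.24 for RVX-208 (adjusted p = 0.0362). Unadjusted p under 0.05 were found for 1 of the 10 under JQ1 and for 5 under RVX-208, all lower, and the median log2 fold changes of the list were -0.11 for JQ1 and -0.17 for RVX-208. The part of these transcripts in the results below was not tested. Array medians lay between 7.27 and 7.31, and arrays correlated over probe sets at r between 0.9962 and 0.9973 within groups.

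JQ1 moved all 6 measurable genes of the complex, and the 2 HEXIM genes moved in opposite directions. HEXIM1, CCNT1, CCNT2, MEPCE and CDK9 rose and HEXIM2 fell, from 2.81-fold higher for HEXIM1 to 1.78-fold lower for HEXIM2. A gene was called at a Benjamini-Hochberg adjusted p under 0.05 in limma over 17845 genes, and by that rule 22.8% of all genes were called for JQ1 against DMSO, 10.7% higher and 12% lower. Under RVX-208, HEXIM1, CCNT1 and CCNT2 rose and the other 3 did not pass, at a background of 6.28% of genes called, 3.06% higher and 3.22% lower. That background rested on few arrays, since leaving out any 1 RVX-208 or DMSO array reduced the 1120 genes called to between 52 and 705. Between JQ1 and RVX-208, HEXIM1, CCNT1 and MEPCE were higher and HEXIM2 was lower in JQ1, with 10.9% of genes called, 4.16% higher and 6.78% lower. The median log2 fold change of the 6 genes was 0.34 for JQ1, 0.21 for RVX-208 and 0.18 for JQ1 against RVX-208, beside -0.04, -0.02 and 0.003 over all genes. Both inhibitors were set against the same DMSO arrays, so their fold changes share those arrays. Their doses differed 10-fold by label, and JQ1 against RVX-208 compares these 2 treatments and not equal doses. When arrays were centred on housekeeping genes on top of the authors' scaling, CCNT2, CDK9 and MEPCE lost their JQ1 call. Their log2 fold changes were then 0.20 for CCNT2, 0.05 for CDK9 and 0.13 for MEPCE.

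**Figure D1:**
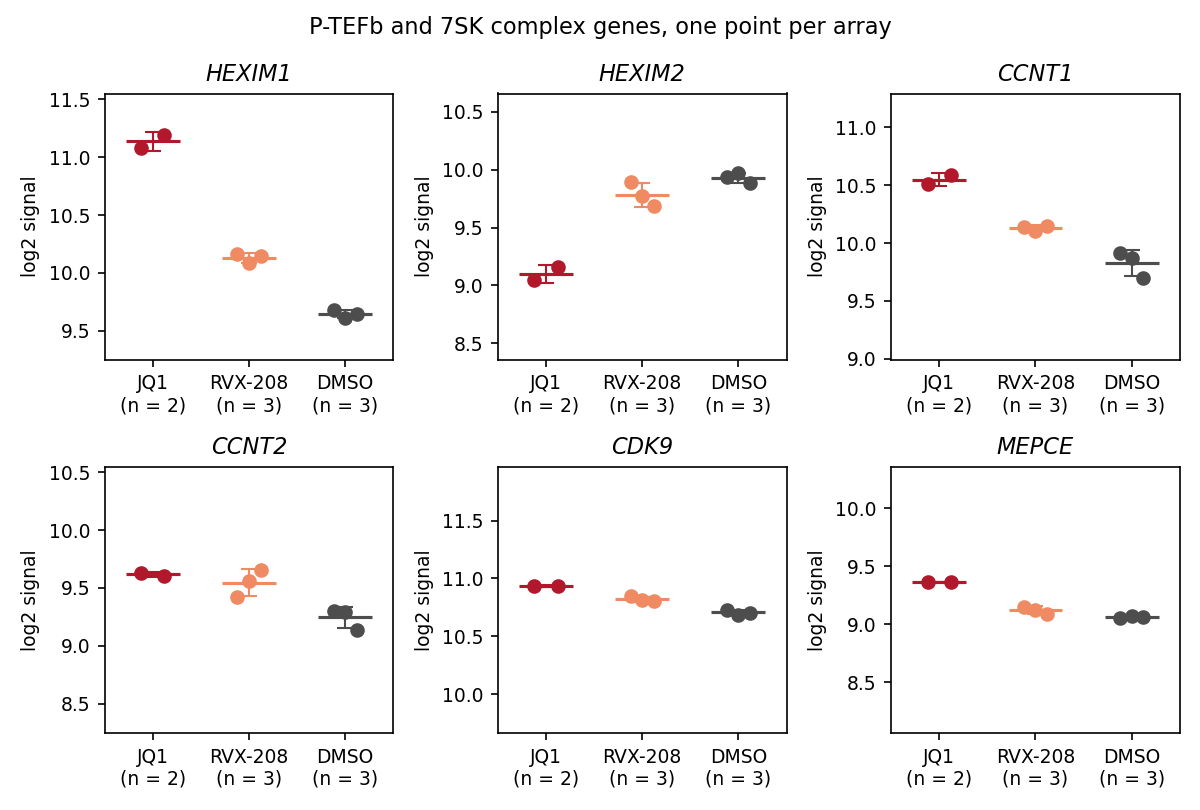
Log2 signal of the 6 genes with their own probe set, 1 point per array, with the group mean (line) and SD (bars) for JQ1, RVX-208 and DMSO; every panel spans the same number of log2 units. JQ1 arrays lie above DMSO arrays for 5 genes and below them for HEXIM2, while RVX-208 arrays lie between the other groups for HEXIM1, CCNT1, CDK9 and MEPCE.

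HEXIM1 (probe set 8007745), the inhibitory subunit that JQ1 raised most, had log2 signals of 11.08 and 11.19 in JQ1 arrays and 10.16, 10.09 and 10.15 in RVX-208 arrays, against 9.68, 9.61 and 9.65 in DMSO arrays. The 3 groups were fully apart, with JQ1 highest and DMSO lowest. HEXIM1 was higher by 1.49 ± 0.06 log2 units in JQ1 (SE, limma, adjusted p = 9.94e-06), which ranked it 13th of all genes by fold change. At least a 2-fold rise with a call was found for 58 genes under JQ1, 0.325% of those tested. RVX-208 raised HEXIM1 by 0.48 ± 0.05 log2 units, or 1.40-fold (adjusted p = 0.00677). JQ1 exceeded RVX-208 by 1.01 ± 0.06 log2 units, or 2.01-fold (adjusted p = 0.000121). All 3 calls held in each of the 17 alternative fits, and the 2 changes against DMSO ranged over 1.31 to 1.55 for JQ1 and 0.38 to 0.51 for RVX-208.

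The authors' deposited table gives a different JQ1 fold change for HEXIM1. It lists 1.35, which is 0.135 log2 units below the difference of group means in the deposited array values. This was the 1 probe set of 19816 for which the authors' deposited table differed by more than 1e-04 in the JQ1 column. For HEXIM1 the RVX-208 fold change of 0.484, the mean of 10.2 and the F score of 334 in the authors' deposited table equalled those computed from the arrays. The cause of the difference was not tested, and the array values are used throughout.

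HEXIM2 (8007750), the paralog that can take HEXIM1's place in the complex, had log2 signals of 9.04 and 9.16 in JQ1 arrays and 9.89, 9.77 and 9.69 in RVX-208 arrays, against 9.94, 9.97 and 9.89 in DMSO arrays. Both JQ1 arrays lay below all others, and RVX-208 and DMSO arrays overlapped by 1 array. JQ1 lowered HEXIM2 by a log2 fold change of -0.83 ± 0.07 (adjusted p = 0.000142), the 109th largest fall of all genes. For RVX-208 the log2 fold change was -0.15 ± 0.06 (95% interval -0.30 to -2e-04), with an adjusted p of 0.179. HEXIM2 was lower in JQ1 than in RVX-208 by a log2 fold change of -0.68 ± 0.07 (adjusted p = 0.000994). The JQ1 calls held in all 17 alternatives, at log2 fold changes of -1.01 to -0.78 against DMSO. RefSeq places the antisense gene HEXIM2-AS1 across parts of HEXIM1 and HEXIM2, and whether the probe sets read it was not tested. In RNA of whole cultures, fewer cells with a transcript and less of it per cell cannot be told apart.

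The divergence within the HEXIM pair was measured inside each array as the log2 signal of HEXIM1 minus that of HEXIM2. The difference was 2.04 and 2.04 in JQ1 arrays and 0.27, 0.32 and 0.45 in RVX-208 arrays, against -0.25, -0.36 and -0.24 in DMSO arrays. Its sign depends in part on how well 2 unlike probe sets hybridise, so it does not say which transcript is more abundant. The change of this difference between groups shows that the paralogs changed unequally. The 3 groups did not overlap, and they averaged 2.04 for JQ1 (SD 0.0016, n = 2), 0.35 ± 0.10 for RVX-208 (SD, n = 3) and -0.29 ± 0.07 for DMSO (SD, n = 3). An exact permutation test of the 3 groups gave p = 0.00357, the smallest that the 560 assignments of the 8 arrays allow, or 0.0286 after Benjamini-Hochberg adjustment over the 8 tests of both pairs. The difference increased by 2.32 log2 units in JQ1 and by 0.63 in RVX-208 against DMSO, and by 1.69 in JQ1 against RVX-208. Each of these steps had an exact two-sided permutation p of 0.1, which is the smallest these group sizes can give, and an adjusted p of 0.114.

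**Figure D2:**
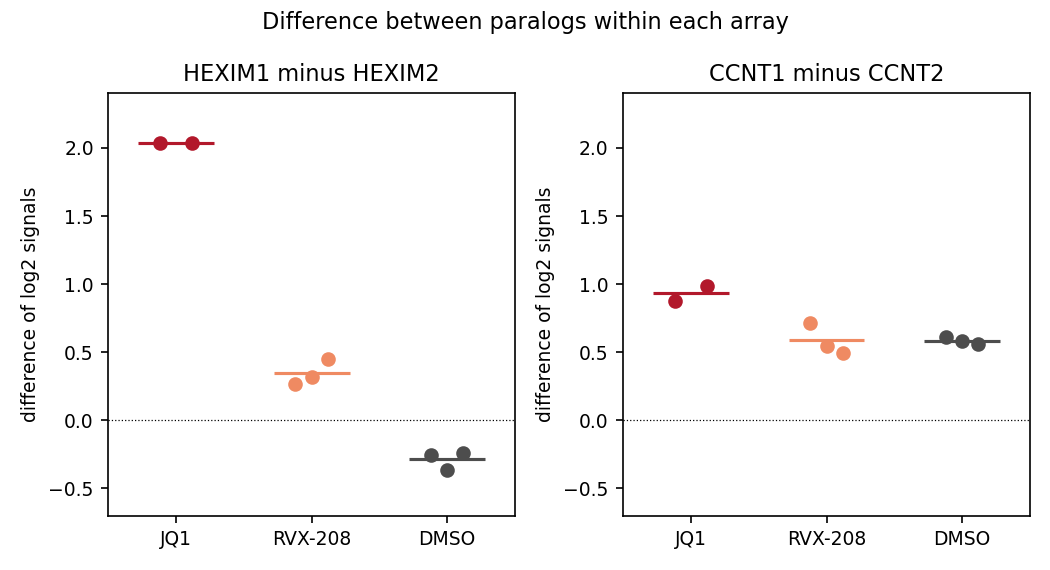
Difference of log2 signals between paralogs within each array, 1 point per array, with a line at the group mean, for HEXIM1 minus HEXIM2 (left) and CCNT1 minus CCNT2 (right). The HEXIM difference is 2.04 in both JQ1 arrays, 0.27 to 0.45 in RVX-208 and below 0 in DMSO, while the cyclin difference is higher in JQ1 and overlaps between RVX-208 and DMSO.

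CCNT1 (7962831) encodes cyclin T1, the main partner of CDK9, and had log2 signals of 10.51 and 10.59 in JQ1 arrays and 10.14, 10.10 and 10.15 in RVX-208 arrays, against 9.91, 9.88 and 9.70 in DMSO arrays. The 3 groups lay apart in the order JQ1, RVX-208, DMSO, and DMSO replicate 3 was the lowest array. JQ1 raised CCNT1 by 0.72 ± 0.07 log2 units, or 1.65-fold (adjusted p = 0.000286), a call that held in all 17 alternatives. RVX-208 raised it by 0.30 ± 0.06 log2 units, or 1.23-fold (adjusted p = 0.0366). This RVX-208 call was kept without DMSO replicate 1, at an adjusted p of 0.0445. It was lost without any 1 of the other DMSO and RVX-208 arrays, at adjusted p of 0.0671 to 0.122. Of the 9 alternatives that did not leave out 1 array, 6 kept it. CCNT1 was higher in JQ1 than in RVX-208 by 0.42 ± 0.07 log2 units (adjusted p = 0.00826). Without JQ1 replicate 2, which left 1 JQ1 array, it was higher by 0.38 and the call was lost.

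CCNT2 (8045381), which encodes the other cyclin T, had log2 signals of 9.63 and 9.60 in JQ1 arrays and 9.42, 9.56 and 9.65 in RVX-208 arrays, against 9.30, 9.29 and 9.14 in DMSO arrays. Both treated groups lay above DMSO, and they overlapped each other. The rise was 0.37 ± 0.08 log2 units in JQ1 (adjusted p = 0.0115) and 0.30 ± 0.07 in RVX-208 (adjusted p = 0.0482). The JQ1 call was lost without either JQ1 array, which left 1 array in that group, at log2 fold changes of 0.36 and 0.39. The RVX-208 call was lost without any 1 of the RVX-208 and DMSO arrays (adjusted p of 0.0529 to 0.152). Of the 9 alternatives that did not leave out 1 array, 4 kept it. Between JQ1 and RVX-208 the log2 fold change was 0.07 ± 0.08, with a 95% interval of -0.11 to 0.26 and an adjusted p of 0.649.

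Within arrays, CCNT1 minus CCNT2 was 0.88 and 0.98 in JQ1 and 0.72, 0.55 and 0.49 in RVX-208, against 0.61, 0.58 and 0.56 in DMSO. JQ1 arrays lay above all others, and RVX-208 arrays fell on both sides of the DMSO arrays. The means were 0.93 ± 0.07 for JQ1 (SD, n = 2), 0.59 ± 0.12 for RVX-208 (SD, n = 3) and 0.59 ± 0.02 for DMSO (SD, n = 3). The exact permutation test of the 3 groups gave p = 0.0357, which did not pass after adjustment over the 8 tests (0.114). The difference was larger by 0.35 log2 units in JQ1 than in DMSO, and by 0.001 in RVX-208 than in DMSO, with exact two-sided permutation p of 0.1 and 1.0. Leaving out 1 array gave differences between JQ1 and DMSO of 0.29 to 0.40. The exact permutation test of the 3 groups then gave p of 0.00952 to 0.143, and the one p under the threshold was that without RVX-208 replicate 1. The HEXIM pair thus passed the adjusted 3-group test and the cyclin T pair did not, and the pairs were not tested against each other.

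CDK9 (8158112), the catalytic subunit of P-TEFb, had log2 signals of 10.93 and 10.94 in JQ1 arrays and 10.84, 10.82 and 10.80 in RVX-208 arrays, against 10.73, 10.69 and 10.71 in DMSO arrays. The groups did not overlap, but the steps were small. The change was 0.23 ± 0.05 log2 units in JQ1, or 1.17-fold (adjusted p = 0.0111), and 0.11 ± 0.04 in RVX-208 (95% interval 0.01 to 0.21, adjusted p = 0.141). The JQ1 call was lost without either JQ1 array, which left 1 array in that group, at log2 fold changes of 0.23 and 0.22. JQ1 and RVX-208 differed by 0.11 ± 0.05 log2 units (95% interval 0.00 to 0.23, adjusted p = 0.195).

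MEPCE (8134821), the enzyme that caps 7SK RNA and stays bound to it, had log2 signals of 9.36 and 9.37 in JQ1 arrays and 9.15, 9.13 and 9.09 in RVX-208 arrays, against 9.05, 9.07 and 9.06 in DMSO arrays. JQ1 arrays stood above the rest, and RVX-208 arrays lay close above DMSO. JQ1 raised MEPCE by 0.31 ± 0.05 log2 units, or 1.24-fold (adjusted p = 0.00285), and for RVX-208 the log2 fold change was 0.06 ± 0.04 (95% interval -0.04 to 0.16, adjusted p = 0.384). MEPCE was higher in JQ1 than in RVX-208 by 0.24 ± 0.05 log2 units (adjusted p = 0.0169). That call was lost without RVX-208 replicate 2 (0.0559) or RVX-208 replicate 3 (0.0594), and with arrays centred on housekeeping genes (0.17 log2 units, 0.109). It was also lost without either JQ1 array, which left 1 array in that group, at 0.25 and 0.24 log2 units.

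Groups that do not overlap were common in these data, so the separation of arrays carries less than the test. All 6 genes separated JQ1 from DMSO, as did 50.4% of all genes, 21.3% higher and 29.2% lower. For RVX-208 against DMSO 5 of the 6 separated, all higher, beside 34.1% of all genes, 15.6% higher and 18.5% lower. For JQ1 against RVX-208 4 genes lay higher and 1 lower, beside 42.8% of all genes, 20.4% higher and 22.4% lower.

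**Figure D3:**
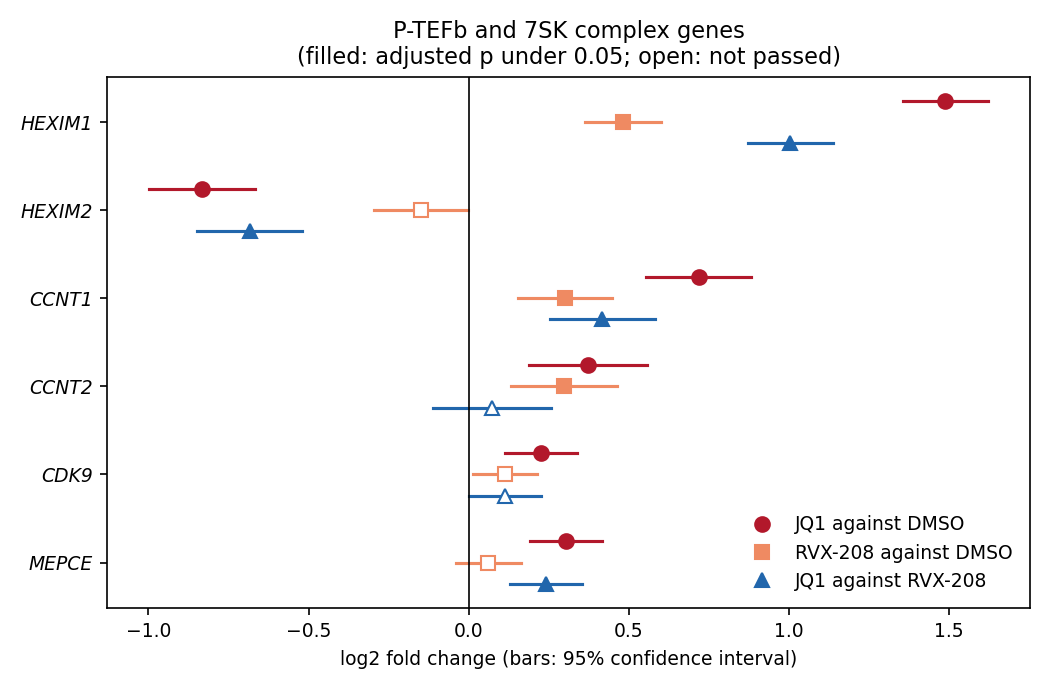
Log2 fold change (x axis) with its 95% confidence interval for the 6 genes in each inhibitor against DMSO (circles for JQ1, squares for RVX-208) and in JQ1 against RVX-208 (triangles); filled markers passed an adjusted p under 0.05. HEXIM1 lies farthest right at 1.49 in JQ1 against DMSO, and HEXIM2 is the gene left of 0 in all 3 comparisons.

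LARP7, which binds the end of 7SK RNA, could not be measured on its own. The probe set it shares with ZGRF1 (8096938) had log2 signals of 7.21 and 7.41 in JQ1 arrays and 7.49, 7.66 and 7.82 in RVX-208 arrays, against 7.48, 7.66 and 7.49 in DMSO arrays. JQ1 arrays were the lowest, and RVX-208 and DMSO arrays overlapped. In a fit over all probe sets its log2 fold changes were -0.23 ± 0.11 for JQ1 (adjusted p = 0.175), 0.11 ± 0.10 for RVX-208 (0.476) and -0.35 ± 0.11 for JQ1 against RVX-208 (0.0887), and none passed. The RNA of the complex, RN7SK, shares a probe set (8120249) with LINC01517, which read 13.84 and 13.87 in JQ1 arrays and 13.82, 13.79 and 13.79 in RVX-208 arrays, against 13.80, 13.85 and 13.80 in DMSO arrays. Its log2 fold changes were 0.04 ± 0.05 for JQ1 (95% interval -0.08 to 0.15, adjusted p = 0.645) and -0.02 ± 0.04 for RVX-208 (-0.12 to 0.08, adjusted p = 0.789). The mean signal of this probe set lay at percentile 100 of the genes tested, and whether a signal this bright can still show a change was not tested.

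Among the substrates of P-TEFb and the factors that pause the polymerase, 6 of 7 listed genes were measured (NELFE is not analysed here). JQ1 raised 2 and lowered 1, RVX-208 changed 0 by limma's adjusted test (1 of 6, lower, had an unadjusted p under 0.05), and the medians were -0.10 for JQ1 and 0.04 for RVX-208. Of all genes, 10.7% were called higher and 12% lower for JQ1, and 3.06% higher and 3.22% lower for RVX-208. With arrays centred on housekeeping genes JQ1 raised 1 and lowered 4 of these, and with cyclic loess it raised 1 and lowered 1. POLR2A, which encodes the subunit of the polymerase with the phosphorylated tail, had log2 signals of 11.21 and 11.32 in JQ1 arrays and 10.55, 10.50 and 10.35 in RVX-208 arrays, against 10.43, 10.41 and 10.41 in DMSO arrays. POLR2A rose by 0.85 ± 0.07 log2 units in JQ1 (adjusted p = 0.000115), and its RVX-208 value was 0.05 ± 0.06 (adjusted p = 0.637). The JQ1 arrays stood apart from all others, and JQ1 exceeded RVX-208 by 0.80 ± 0.07 log2 units (adjusted p = 0.00046). NELFA, of the negative elongation factor NELF, had log2 signals of 8.76 and 8.70 in JQ1 arrays and 9.22, 9.19 and 9.17 in RVX-208 arrays, against 9.38, 9.29 and 9.37 in DMSO arrays. Its log2 fold change was -0.62 ± 0.05 in JQ1 (adjusted p = 0.000148) and -0.15 ± 0.05 in RVX-208 (adjusted p = 0.0917), and -0.47 ± 0.05 in JQ1 against RVX-208 (adjusted p = 0.0015). SUPT4H1, a subunit of DSIF, rose by 0.21 ± 0.06 log2 units in JQ1 (adjusted p = 0.0425), but 6 of the 8 fits that left out 1 array lost this call (adjusted p up to 0.178), as did housekeeping centring (0.04 log2 units, 0.675).

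Of the super elongation complex, which carries active P-TEFb, 9 genes were measured, with medians of 0.06 for JQ1 and -0.01 for RVX-208. By limma's adjusted test JQ1 raised 1 and lowered 0, and RVX-208 changed 0. The shares of all genes raised and lowered were 10.7% and 12% for JQ1, and 3.06% and 3.22% for RVX-208. In this list unadjusted p under 0.05 were found for 2 higher and 1 lower under JQ1 and for 1 higher under RVX-208. JQ1 raised 1 and lowered 3 with housekeeping centring, and raised 2 and lowered 1 without the dimmest 25% of genes. The 1 raised was AFF4, the scaffold of the super elongation complex, with log2 signals of 10.59 and 10.64 in JQ1 arrays and 10.25, 10.13 and 10.19 in RVX-208 arrays, against 10.18, 10.17 and 10.03 in DMSO arrays. RVX-208 and DMSO arrays overlapped, and JQ1 arrays lay above both. AFF4 was higher by 0.48 ± 0.07 log2 units in JQ1 than in DMSO (adjusted p = 0.00134) and by 0.42 ± 0.07 than in RVX-208 (adjusted p = 0.0059), while RVX-208 against DMSO gave 0.06 ± 0.06 (adjusted p = 0.537).

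Factors that bind 7SK RNA or release P-TEFb from it were measured for 13 of 15 listed, since RN7SK and HNRNPA1 were on shared probe sets. JQ1 raised 3 and lowered 2, RVX-208 changed 0 by limma's adjusted test (2 of 13, both lower, had an unadjusted p under 0.05), and the medians were -0.0047 for JQ1 and -0.02 for RVX-208. Beside these counts, JQ1 raised 10.7% and lowered 12% of all genes, and RVX-208 raised 3.06% and lowered 3.22%. With housekeeping centring JQ1 raised 0 and lowered 6 of the 13, and DHX9 (0.03), SRSF2 (0.02) and TRIM28 (0.0018), a corepressor and the third of those raised, were no longer called. DDX21, a helicase that frees P-TEFb from the 7SK complex at some of its target genes, had a log2 fold change of -0.43 ± 0.07 in JQ1 (adjusted p = 0.00236) and of -0.24 ± 0.06 in RVX-208 (adjusted p = 0.0521). JMJD6, which acts in releasing P-TEFb, had -0.29 ± 0.09 in JQ1 (adjusted p = 0.0404). The highest called were DHX9, an RNA helicase, at 0.20 ± 0.06 (adjusted p = 0.0415) and SRSF2, a splicing factor that binds 7SK, at 0.19 ± 0.05 (adjusted p = 0.0223). The fits that left out 1 array kept the JQ1 call of DDX21 in 8 of 8, of SRSF2 in 5, of JMJD6 in 3, of DHX9 in 1 and of TRIM28 in 0, with adjusted p of up to 0.1 for SRSF2, 0.241 for JMJD6, 0.247 for DHX9 and 0.173 for TRIM28.

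Other transcription kinases and their cyclins were measured for 8 of 9 listed (CDK8 was on a shared probe set), with medians of 0.12 for JQ1 and 0.13 for RVX-208. JQ1 raised 2 and lowered 1, beside 10.7% and 12% of all genes. RVX-208 raised 1 and lowered 1, beside 3.06% and 3.22%. With housekeeping centring JQ1 raised 0 and lowered 2, with MNAT1 at 0.21 (adjusted p = 0.0516) and CDK7 at 0.20 log2 units (0.0636), and RVX-208 raised 0 and lowered 1. MNAT1 and CDK7, both of the kinase that phosphorylates the polymerase at initiation, rose in JQ1 by 0.39 ± 0.08 (adjusted p = 0.00678) and 0.38 ± 0.09 log2 units (adjusted p = 0.0149). In RVX-208 MNAT1 rose by 0.28 ± 0.07 (adjusted p = 0.0478), a call lost in all 8 fits that left out 1 array, and CDK7 had 0.22 ± 0.08 (adjusted p = 0.119). CDK19, a Mediator kinase, had log2 signals of 8.34 and 8.34 in JQ1 arrays and 8.54, 8.49 and 8.52 in RVX-208 arrays, against 8.89, 8.76 and 8.76 in DMSO arrays. The 3 groups lay apart, and CDK19 fell with log2 fold changes of -0.47 ± 0.06 in JQ1 (adjusted p = 0.00076) and -0.29 ± 0.05 in RVX-208 (adjusted p = 0.0246). Leaving out 1 array kept the RVX-208 call of CDK19 in 3 of 8 fits and the JQ1 call of CDK7 in 6 of 8.

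**Figure D4:**
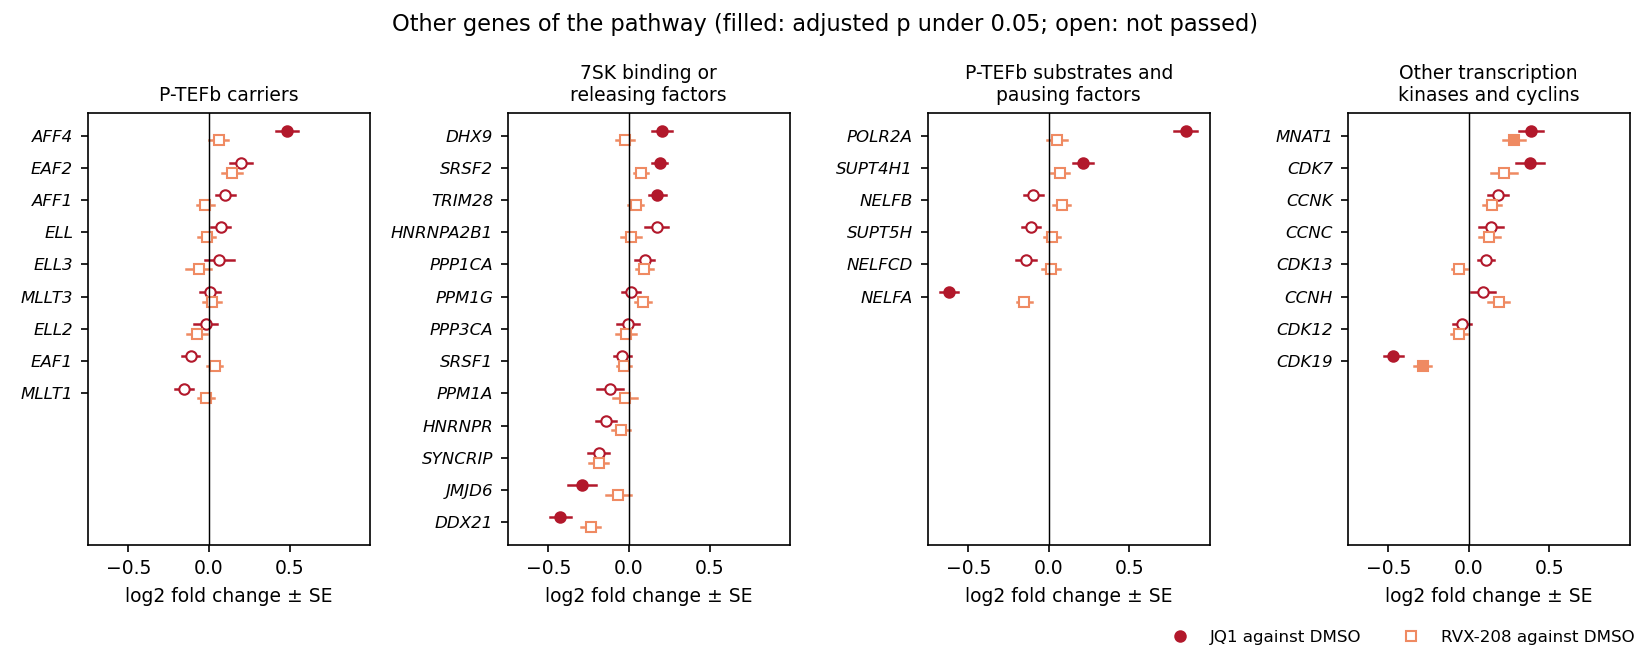
Log2 fold change with its SE for the measured genes of 4 related groups in JQ1 against DMSO (circles) and RVX-208 against DMSO (squares); filled markers passed an adjusted p under 0.05. POLR2A at 0.85 and NELFA at -0.62 in JQ1 lie farthest from 0, with RVX-208 values of 0.05 and -0.15.

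The genes most like each paralog were named by Pearson's r of log2 signal over the 8 arrays, among the 1010 genes with a JQ1 fold change of at least 0.5 log2 units in size. The 8 points share arrays and fall into 3 groups, so r mostly ranks genes by the order and spacing of the groups and is given as a description. HEXIM1 was most like ZSWIM6 (r = 0.9984), TXNIP, PPP1R15B, KLHL28 and GGNBP2 (0.9944). TXNIP, an arrestin that limits glucose uptake, had log2 fold changes of 1.53 ± 0.06 for JQ1 and 0.54 ± 0.06 for RVX-208, close in size to 1.49 and 0.48 for HEXIM1. HEXIM2 was most like FIGN (0.9942), FAM169A, BCL9, WWC1 and INAVA (0.9888), which had JQ1 log2 fold changes of -0.78 to -0.52 and RVX-208 values of -0.17 to -0.08 that did not pass the test. CCNT1 was most like WDR26 (0.9982), TICRR, EPB41L5, USP53 and H2BC5 (0.9951), a histone gene with 1.32 ± 0.12 for JQ1 and 0.63 ± 0.11 for RVX-208. CCNT2 itself, at 0.37 for JQ1, lay below the cut of 0.5, so genes with a change as small as its own were not ranked. Among the genes ranked, CCNT2 was most like SNORD116-13 (0.9883), MICU2, CEP68, COG2 and ING2 (0.9683), of which SNORD116-13 had 0.66 ± 0.11 for JQ1 and 0.49 ± 0.10 for RVX-208. None of the 20 genes was named for more than 1 of the 4 paralogs.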

How the data were processed

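The deposited table holds log2 signals per probe set for 8 arrays, made by the authors with RMA in R 2.15.3 and limma 3.14.4, per the submitters' processing notes. RMA brings all arrays to 1 distribution, so a change of all transcripts together is not measured. The authors' deposited table of their own fit, with log2 fold changes, an F score and p-values, was used as a check of scale and sample mapping. Detection calls are not used here, and some listed genes are not reported here.

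Of 19816 probe sets, 17859 had 1 gene symbol, 997 several and 960 none; for 14 genes with several probe sets the brightest was used, which left 17845 genes. The gene IDs of 17835 probe sets matched RefSeq, 24 did not, and 0 symbols were updated. A mean per group was fitted over all 8 arrays with limma 3.58.1 (lmFit, eBayes) in R 4.3.3, with two-sided tests (median of 8.55 degrees of freedom), Benjamini-Hochberg adjustment over all genes and calls at 0.05. Intervals are 95% confidence intervals, and errors are SE of the fit unless given as SD. Paralog differences were tested by exact permutation in Python 3.11.15. The steps were tested on simulated data.

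The members, the gene lists and the tests were chosen with earlier results of these data known. The text names all members, the 2 highest and 2 lowest called genes of each list against DMSO, and the 5 genes most like each paralog; PDGFRB, B2M, GUSB and TRIM28 were named after their values were seen. Replicate numbers were not taken to pair samples: correlations of deviations between same-numbered arrays were -0.15 to 0.076. The labels used here give no batch or date. Alternatives were cyclic loess, centring on housekeeping genes, leaving out the dimmest 25% of genes, all probe sets, other eBayes priors, 2-group fits, array weights, the replicate block and leaving out each array.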

Additional observations from a re-analysis of the deposited data

How the results depend on the processing

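No called value of a member or list gene changed sign under any alternative run. Of the 9 measured housekeeping genes, B2M and GUSB were called higher in JQ1, and 8 lay wholly above DMSO, as did 21.3% of all genes. Their median log2 fold change was 0.15 for JQ1 and 0.09 for RVX-208. Centring on housekeeping genes put the median gene at -0.22 in JQ1 and at -0.12 in RVX-208, with 8940 genes called for JQ1 (885 higher, 8055 lower) and 3655 for RVX-208 (290 higher, 3365 lower). By that scaling 3 members were called for JQ1 (HEXIM1, CCNT1 and HEXIM2), and CCNT2 (adjusted p = 0.0565), CDK9 (0.492) and MEPCE (0.0991) were lost. With it 2 members were called for RVX-208, HEXIM1 higher (0.38, adjusted p = 0.0123) and HEXIM2 lower (-0.25, 0.0449). CCNT1 (0.20, 0.0647) and CCNT2 (0.20, 0.0654) lost their RVX-208 call, and the RVX-208 value of MEPCE turned to -0.04. Its counts for the pathway lists in each inhibitor against DMSO stand beside each list. For RVX-208, 1979 genes were called without the dimmest 25% of genes, 2248 with an intensity trend and 80 with the replicate block. One member, HEXIM1, was called for RVX-208 with the block, as in a fit of the 2 groups alone. The block gave 1050 genes for JQ1 against RVX-208, and lost MEPCE there (0.23, adjusted p = 0.0753). With the block, JQ1 and DMSO differed by 0.32 for CCNT1 minus CCNT2 and by 2.36 for the HEXIM pair, and the exact permutation test of the 3 groups gave p of 0.111 and 0.0278. Same-numbered arrays did not deviate together. Cyclic loess gave 2143 genes higher and 1930 lower for JQ1 and 528 and 378 for RVX-208. Leaving out 1 array gave 2565 to 3788 genes for JQ1, 52 to 756 for RVX-208 and 841 to 1981 for JQ1 against RVX-208. The first count came to 2572 when JQ1 replicate 1 was left out and to 2565 when JQ1 replicate 2 was. The RVX-208 count was 291, 151 and 52 without RVX-208 replicates 1, 2 and 3, and 705, 310 and 81 without DMSO replicates 1, 2 and 3. That of JQ1 against RVX-208 was 841 and 949 without JQ1 replicates 1 and 2, and 1268, 1166 and 1169 without RVX-208 replicates 1, 2 and 3. Members called then numbered 4 to 6, 1 to 2 and 2 to 4, and CCNT1 minus CCNT2 changed by 0.29 to 0.40. The paralog differences have no other value from a mean over probe sets, since each gene has 1. The number of arrays limits the precision.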

Other observations

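The 2 HEXIM genes moved apart under JQ1 between neighbours for which no change passed the test. On the HEXIM1 side, the nearest 3 measured genes had JQ1 log2 fold changes of 0.01 ± 0.07 (ACBD4, adjusted p = 0.935), 0.14 ± 0.06 (PLCD3, 0.103) and -0.12 ± 0.06 (NMT1, 0.153). On the HEXIM2 side, they were -0.19 ± 0.08 (FMNL1, 0.136), -0.12 ± 0.08 (MAP3K14-AS1, 0.324) and -0.09 ± 0.11 (SPATA32, 0.597). Under RVX-208 the 6 values ran from -0.26 (FMNL1, 0.0695) to 0.18 (ACBD4, 0.115), and none passed.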
